A study of Homo sapiens with 6 samples.

Results

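The genes that make and use microRNAs were examined in SK-N-AS cells after knockdown of the splicing factor Prp19. The set was chosen by name and has 10 members of the 58735 listed genes. It holds the nuclear processing enzyme DROSHA and its partner DGCR8, the export receptor XPO5, the cytoplasmic enzyme DICER1 and its partner TARBP2, the Argonautes AGO1, AGO2, AGO3 and AGO4, and the RNA-binding protein LIN28B. SK-N-AS is an established human neuroblastoma cell line. One group had been transfected with an siRNA against Prp19 (siPrp19) and the other with a negative control siRNA (NC). The labels put RNA collection at 72 h after transfection, whereas a shorter interval is stated in the study's methods. Each group had 3 libraries of total RNA, named here by their value columns as NCa, NCb and NCc and as siPrp19a, siPrp19b and siPrp19c. The knockdown is transient, it rests on a siRNA selected by the study for efficiency, and the libraries are bulk RNA, in which fewer cells of a type and less RNA per cell cannot be told apart.

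A microRNA gene is transcribed as a long primary transcript, from which the DROSHA and DGCR8 complex cuts a hairpin. XPO5 carries the hairpin to the cytoplasm, DICER1 with TARBP2 removes its loop, and one strand is loaded into an Argonaute, which silences mRNAs that pair with the first bases of the microRNA. LIN28B binds precursors of the let-7 family and blocks their maturation, and it is known in neuroblastoma as an oncogene that keeps let-7 low. An siRNA also acts through an Argonaute, so the Argonaute genes of the set encode proteins on which the knockdown itself relies.

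For 2 of the 6 libraries the file and its sample label stated opposite groups. The column NCb stood in the file recorded under the sample labelled siPrp19 replicate 1, and the column siPrp19b stood in the file recorded under NC replicate 3. The groups below follow the column names. The results for the members and lists are also given for the 4 libraries whose column and label stated the same group and, where it differed, for all 6 libraries as labelled. The targeted gene, PRPF19 (chromosome 11, minus strand, 60890730 to 60906588), stood at 83.0 FPKM in NCa, 83.1 in NCb and 93.0 in NCc, and at 19.6 in siPrp19a, 19.1 in siPrp19b and 18.5 in siPrp19c. FPKM is the number of fragments per kilobase of exon, scaled to a library size. That size was not the total of reads assigned to genes. The total was 1.01 to 1.04 times that size in NC and 0.951 to 0.989 times it in siPrp19, by column name. The groups by column name did not overlap, and the mean level fell by 77.9%. Grouped as labelled, PRPF19 was 65.0 FPKM ± 40.1 in NC and 40.4 FPKM ± 36.9 in siPrp19 (SD, n = 3 each). The labelled NC group thus held siPrp19b with its low PRPF19, and the labelled siPrp19 group held NCb with its high PRPF19.

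Depth was between 14887132 and 19977811 reads assigned to genes. Mitochondrial genes took 8.29% of the reads in siPrp19a and 5.15% to 5.49% in the other libraries. NCa and NCb were much closer to each other than other libraries were, with a chi-square of 1.75 per degree of freedom over genes, and siPrp19b and siPrp19c were close as well, at 2.85. The other 13 pairs of libraries lay between 21.5 and 56.5. Of 12 markers of neuroblastoma, 11 had a mean of at least 1 FPKM, and TH, the enzyme that starts catecholamine synthesis, was below 1 FPKM in every library. Of 8 markers of the mesenchymal neuroblastoma state, 7 had such a mean. Of 10 markers of immune, epithelial and endothelial cells, only PTPRC did. The summed marker levels moved with the groups. For the neuroblastoma markers they were 582 to 630 FPKM in NC and 486 to 534 in siPrp19, and for the mesenchymal markers 267 to 301 and 225 to 255. For the markers of other cells the sums were 26.5 to 32.2 and 17.96 to 21.96. All of these markers except PTPRC were below 1 FPKM in every library. The part of the summed marker levels in the results below was not tested.

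Of the 10 members, 9 were expressed at a mean of at least 1 FPKM and were tested, and LIN28B had 0 to 3 reads per library. The tested members stood between 2.95 FPKM for AGO4 and 14.9 FPKM for XPO5, as means of the 6 libraries. By the test of all genes (limma on log2(FPKM + 1), adjusted p under 0.05), 0 of the 9 tested members were called different between the groups, where 7.94% of all 13718 tested genes were called, 353 higher and 736 lower in siPrp19 (501 and 586 with quantile normalization). At an unadjusted p under 0.05 there was 1, DICER1, where 23.6% of all tested genes had such a p. With voom on the recovered reads, at the library sizes behind the FPKM, the count was also 0, against 10.2% of all genes. In that fit 2 members, DICER1 and AGO2, had an unadjusted p under 0.05, against 24.8% of all genes. These 2 were higher in all 3 siPrp19 libraries than in any NC library, a pattern held by 13.2% of all tested genes. In either direction, 2 of the 9 did not overlap, against 31.3% of all genes. As labelled 1 of the 9, AGO3, did not overlap (4.62% of all genes), and after the length and GC correction described below it was 4 of the 9 (36.6% of all genes). In the 4 libraries, 0 of the 9 were called, with 0.0146% of all genes called. Grouped as labelled, 0 of the 9 were called, and the share of all genes was 0%. The libraries may not come from separate cultures, so p-values measure only the spread between them.

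**Figure D1:**
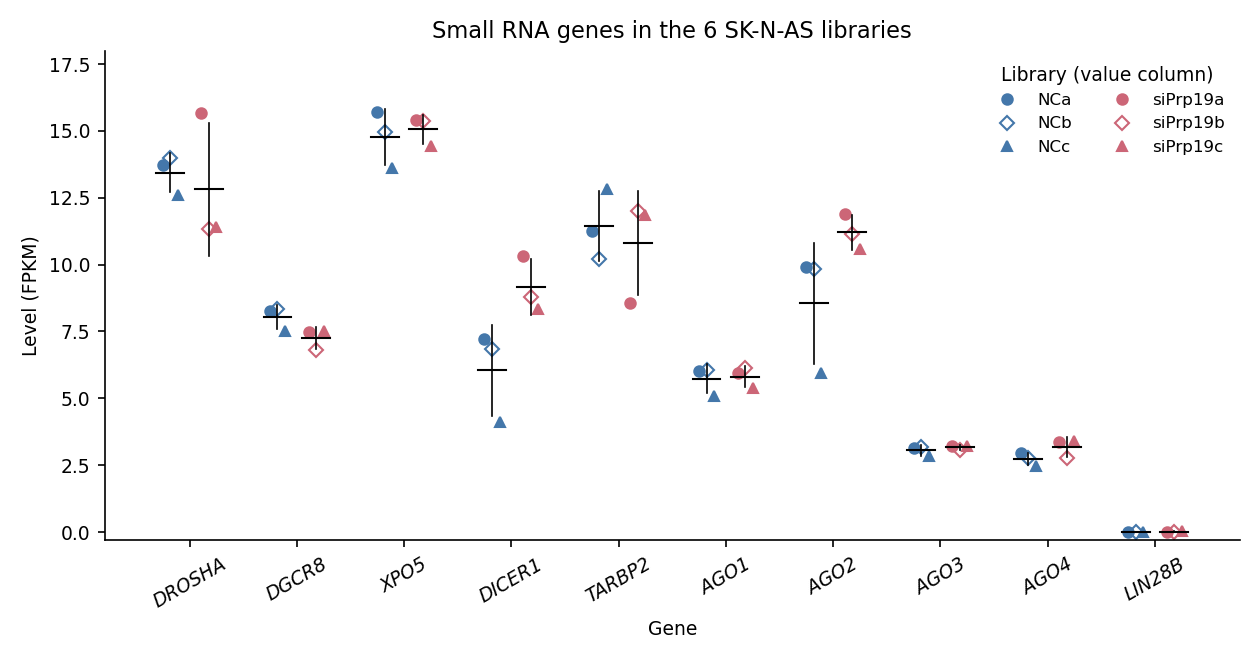
Level in FPKM (vertical axis) of the 10 genes in each library. Blue points are NC and red points siPrp19, open diamonds are the libraries whose label states the other group, bars are means and vertical lines are ± 1 SD (n = 3). DICER1 and AGO2 do not overlap between the groups, NCc is the lowest library for both, and LIN28B lies at the bottom of the axis.

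By level per length of exon, the order was XPO5, DROSHA, TARBP2, AGO2, DGCR8, DICER1, AGO1, AGO3 and AGO4, followed by LIN28B. Of the 9 pairs of neighbours, 7 changed places in at least 1 library. AGO1 was above AGO3 in 6 of 6 libraries, by 2.66 FPKM where the larger SD was 0.428, and AGO4 was above LIN28B in 6 of 6. DGCR8 and DICER1 differed by 0.0463 FPKM on average, and DGCR8 was the higher in 3 of 6 libraries.

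DROSHA, the RNase III enzyme that cuts primary microRNA transcripts (chromosome 5, minus strand, 31400497 to 31532196), had 13.7 FPKM in NCa, 14.0 in NCb and 12.6 in NCc, and 15.7 in siPrp19a, 11.3 in siPrp19b and 11.4 in siPrp19c. siPrp19a was above every NC library and the other siPrp19 libraries were below every NC library. The log2 fold change was -0.08 ± 0.13 (SE, adjusted p = 0.765), and its sign turned in the 4 libraries, to 0.02, and as labelled, to 0.11. DGCR8, the RNA-binding partner that positions DROSHA (chromosome 22, plus strand, 20080232 to 20111877), had 8.25, 8.33 and 7.51 FPKM in NCa, NCb and NCc and 7.48, 6.80 and 7.53 in siPrp19a, siPrp19b and siPrp19c. Its log2 fold change was -0.13 ± 0.07 (SE, adjusted p = 0.347), with a 95% interval from -0.30 to 0.04. It was -0.06 in the 4 libraries and 0.05 as labelled. TRMT2A is transcribed from the opposite strand in the DGCR8 locus, and without strand information its reads cannot be separated from those of DGCR8 where they overlap.

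XPO5, the exportin that carries hairpin precursors out of the nucleus (chromosome 6, minus strand, 43522330 to 43576075), had the highest level of the set. It stood at 15.7, 15.0 and 13.6 FPKM in NCa, NCb and NCc and at 15.4, 15.4 and 14.4 in siPrp19a, siPrp19b and siPrp19c. The groups overlapped, and the log2 fold change was 0.03 ± 0.07 (SE, adjusted p = 0.861). The 95% interval ran from -0.15 to 0.20, and it was wider, from -0.24 to 0.37, with the close pairs of libraries averaged. In the 4 libraries the log2 fold change was 0.02, with an interval from -0.30 to 0.34. Its sign turned without NCc, to -0.03. POLR1C overlaps XPO5 on the opposite strand, as DICER1-AS1 does DICER1, with the same limit as for DGCR8.

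DICER1, the enzyme that cuts the loop from hairpin precursors (chromosome 14, minus strand, 95086228 to 95158010), showed the largest difference of the set. It stood at 7.22 FPKM in NCa, 6.83 in NCb and 4.10 in NCc, and at 10.3 in siPrp19a, 8.81 in siPrp19b and 8.34 in siPrp19c. Every siPrp19 library was above every NC library, and NCc lay well below NCa and NCb. The mean was 6.05 FPKM ± 1.70 in NC and 9.16 FPKM ± 1.04 in siPrp19 (SD, n = 3 each), which is 1.51 times as high. The log2 fold change of 0.55 ± 0.19 (SE) did not pass the adjusted threshold (adjusted p = 0.127). For DICER1 an exact permutation test (two-sided) reached p = 0.1, the smallest value possible with 3 libraries against 3.

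The size of the difference in DICER1 depended on the library NCc and on the grouping. Without NCc, the log2 fold change was smaller, 0.34, with a lower adjusted p of 0.0896. In the 4 libraries it was 0.67 ± 0.24 (SE, adjusted p = 0.359), with 5.66 FPKM ± 2.20 in NC and 9.33 FPKM ± 1.41 in siPrp19 (SD, n = 2 each). As labelled it was 0.34, with an interval from -0.24 to 0.91. When each library was corrected for exon length and GC content, an alternative chosen after seeing the data, it was 0.60 ± 0.12 (SE) and passed the threshold (adjusted p = 0.0234). In that fit 1 of the 9 tested members was called, where 12.9% of all genes were called. Corrected in the 4 libraries, DICER1 gave an adjusted p of 0.159.

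DICER1 mRNA itself contains matches to the let-7 seed, as do mRNAs of other members, and those of DICER1 are shown because DICER1 matures the let-7 family. The letters CTACCTC, which pair with bases 2 to 8 of let-7, were searched on the transcribed strand of 1 coding transcript per gene (GENCODE 29, GRCh38), the one with the longest 3′ UTR. They occurred 4 times in the 5769 bases of the DICER1 coding sequence and 0 times in its 3′ UTR of 4270 bases. At least 1 match lay in the coding sequence of 12.7% of 19075 genes, whose coding sequences averaged 1635 bases, and in the 3′ UTR of 9.59%. Among the other members, AGO2 had 2 matches in its 3′ UTR, and AGO1, AGO3 and TARBP2 had 1 each there. AGO3 and XPO5 had 1 each in the coding sequence, AGO4, DROSHA and DGCR8 had 0 in both, and LIN28B is described below. The matches are written here with 15 bases before and 3 after, 5′ to 3′ on the mRNA, with the match in capitals.
DICER1 exon 18 of 29, chr14:95107889-95107895, minus strand: tcagcatactgtgttCTACCTCtta
DICER1 exon 23 of 29, chr14:95103749-95103755, minus strand: tacccgtgcaaccaaCTACCTCata
DICER1 exon 23 of 29, chr14:95103641-95103647, minus strand: gaaatgctaacaaatCTACCTCaga
DICER1 exon 26 of 29, chr14:95094107-95094113, minus strand: agatgcgattttggaCTACCTCata
A match is a description of the sequence and shows no binding in these cells.

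TARBP2, the double-stranded RNA-binding partner of DICER1 (chromosome 12, plus strand, 53500921 to 53506431), went in the other direction from DICER1 in the libraries that stood apart. It had 11.2 FPKM in NCa, 10.2 in NCb and 12.8 in NCc, and 8.57 in siPrp19a, 12.0 in siPrp19b and 11.9 in siPrp19c. NCc was the highest and siPrp19a the lowest library, and the groups overlapped. The log2 fold change was -0.08 ± 0.14 (SE, adjusted p = 0.776), -0.23 in the 4 libraries and -0.22 as labelled, and its sign turned without siPrp19a, to 0.06.

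**Figure D2:**
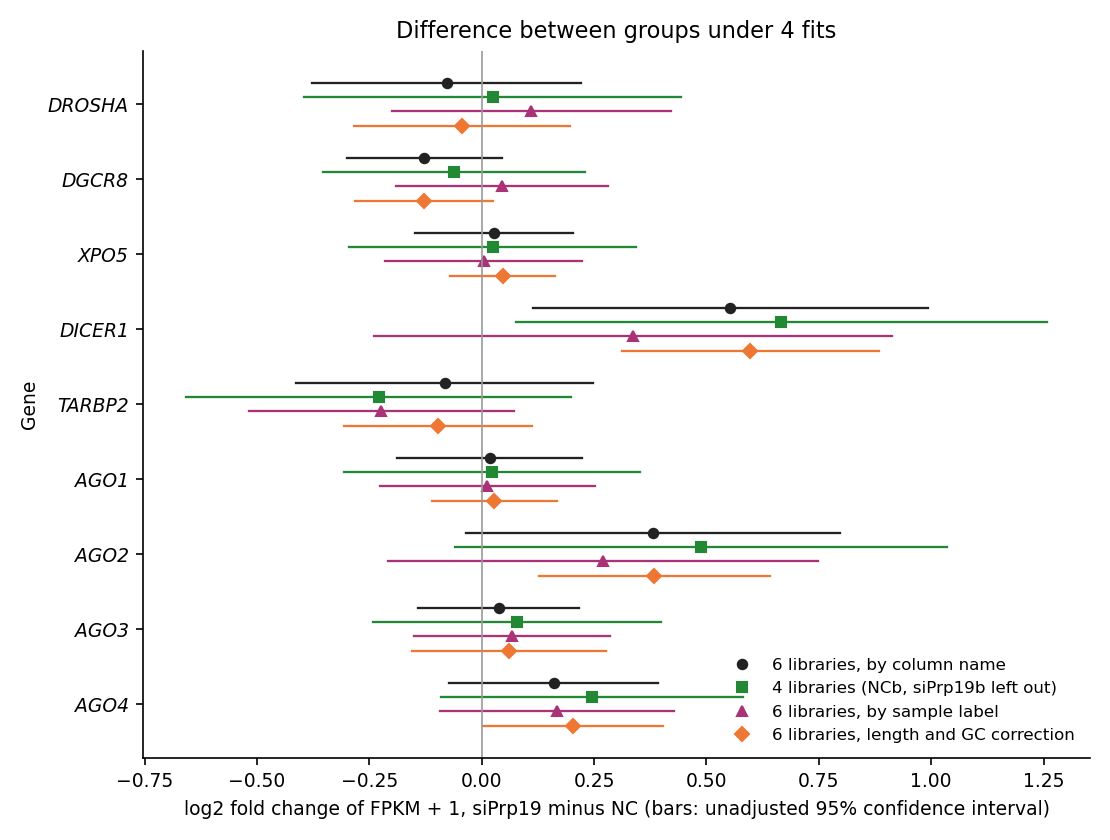
log2 fold change of FPKM + 1 (horizontal axis, siPrp19 minus NC) of the 9 tested genes in 4 fits, with unadjusted 95% confidence intervals as bars. DICER1, AGO2, AGO1, AGO3, AGO4 and XPO5 lie to the right of 0 in every fit shown, DICER1 and AGO2 the farthest. The interval of AGO2 leaves out 0 only with length and GC correction. DROSHA and DGCR8 change sign with the grouping. Only DICER1 in the fit with length and GC correction passed the adjusted threshold (adjusted p = 0.0234).

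The 4 Argonautes differ in that AGO2 is the one with a well-known slicing activity, the activity that a perfectly paired siRNA uses, whereas AGO1, AGO3 and AGO4 repress mainly with partner proteins. AGO2 (chromosome 8, minus strand, 140520156 to 140635619) had 9.91 FPKM in NCa, 9.82 in NCb and 5.94 in NCc, and 11.9 in siPrp19a, 11.2 in siPrp19b and 10.6 in siPrp19c. The groups did not overlap, and NCc again lay far below the other NC libraries. The mean was 8.56 FPKM ± 2.27 in NC and 11.2 FPKM ± 0.666 in siPrp19 (SD, n = 3 each), 1.31 times as high. The log2 fold change was 0.38 ± 0.18 (SE, adjusted p = 0.248), and the exact permutation p was 0.1, the smallest possible. Without NCc it fell to 0.17 (adjusted p = 0.187). In the 4 libraries it was 0.49 (adjusted p = 0.451), as labelled it was 0.27, and after length and GC correction it was 0.38 (adjusted p = 0.0641).

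AGO1, AGO3 and AGO4 lie side by side on the plus strand of chromosome 1, in the order AGO4 (35808172 to 35857890), AGO1 (35869808 to 35930528) and AGO3 (35930718 to 36072500). They span 264329 bases, with 11917 bases between AGO4 and AGO1 and 189 between AGO1 and AGO3. AGO1 had 6.02, 6.07 and 5.10 FPKM in NCa, NCb and NCc and 5.94, 6.12 and 5.37 in siPrp19a, siPrp19b and siPrp19c. AGO3 had 3.16, 3.20 and 2.82 FPKM in the NC libraries and 3.21, 3.07 and 3.22 in the siPrp19 libraries, in the same order. AGO4 had 2.95, 2.78 and 2.47 FPKM in the NC libraries and 3.36, 2.75 and 3.41 in the siPrp19 libraries. For each of these neighbours the groups overlapped and NCc was the lowest library. The log2 fold changes were 0.02 ± 0.09 for AGO1 (SE, adjusted p = 0.925), 0.04 ± 0.08 for AGO3 (adjusted p = 0.811) and 0.16 ± 0.10 for AGO4 (adjusted p = 0.384). Their 95% intervals ran from -0.19 to 0.22, from -0.14 to 0.22 and from -0.07 to 0.39. In the 4 libraries the values were 0.02, 0.08 and 0.25, none of them past the adjusted threshold. The sign of AGO1 and AGO3 turned without NCc, to -0.05 and -0.0047.

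As a share of the summed FPKM of the 4 Argonautes, AGO2 was the main one in every library. It made up 45.0% in NCa, 44.9% in NCb and 36.4% in NCc, and 48.7% in siPrp19a, 48.3% in siPrp19b and 46.8% in siPrp19c. The mean share was 42.1% ± 4.95 in NC and 48.0% ± 1.01 in siPrp19 (SD, n = 3 each). AGO1 had the opposite order, with 28.8% ± 2.12 in NC and 24.9% ± 1.43 in siPrp19. AGO3 held 15.4% ± 1.63 and 13.6% ± 0.604. The groups by column name did not overlap for AGO1, AGO2 or AGO3, which fixes the same outcome in the 4 libraries. They overlapped as labelled. By FPKM of single genes, 31.3% of all tested genes did not overlap by column name in either direction. AGO4 held 13.7% ± 1.25 and 13.6% ± 1.61. The exact permutation p was 0.1, the smallest possible, for AGO1, AGO2 and AGO3 and 1 for AGO4. The shares are parts of 1 sum, so that a larger share of AGO2 makes the other shares smaller.

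**Figure D3:**
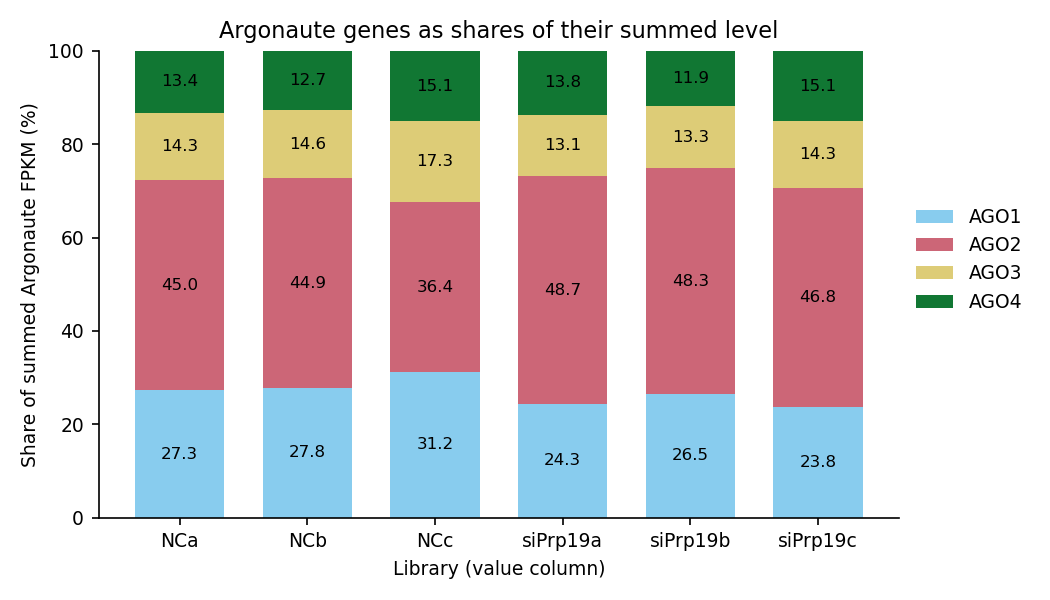
Share of each Argonaute gene in the summed FPKM of the 4 Argonautes (vertical axis, %), in each library. AGO2 takes 36.4% in NCc, 44.9% to 45.0% in the other NC libraries and 46.8% to 48.7% in the siPrp19 libraries.

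NCc was the lowest of the 6 libraries for 6 of the 9 tested members, AGO1, AGO2, AGO3, AGO4, DICER1 and XPO5, and the highest for TARBP2. Over all tested genes, NCc was the lowest library for 22.8% and the highest for 28.6%. Of the 9 tested members, 8 are long genes, with 7267 to 21157 bases of exon, and TARBP2 has 4090. Among tested genes with at least 7000 bases of exon, 3316 in number, the median deviation from the mean of the 6 libraries was -0.09 on the log2 scale in NCc, and it was 0.06 among the 10402 other genes. In siPrp19a it was 0.05 among long genes and -0.03 among the others. DICER1 deviated by -0.71 and AGO2 by -0.62 in NCc, more than these medians. After the length and GC correction the log2 fold changes were 0.60 for DICER1 and 0.38 for AGO2, and before it 0.55 and 0.38. That correction removes only an average trend over genes in each library. The part of exon length in the differences of DICER1 and AGO2 was not tested.

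**Figure D4:**
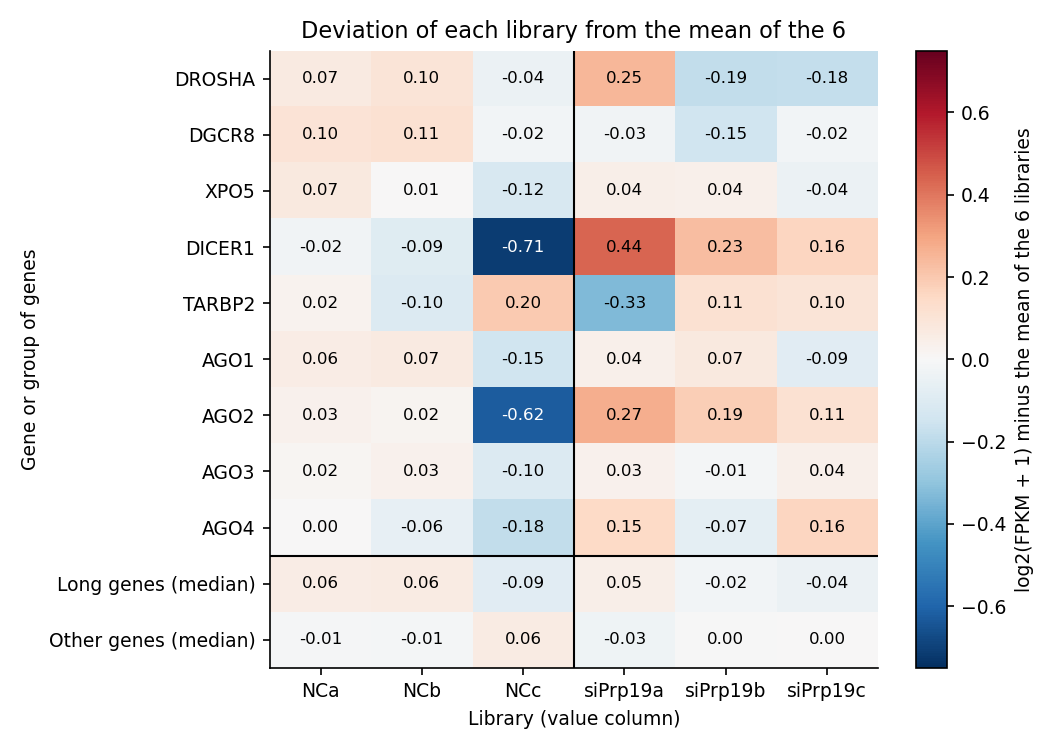
Deviation of log2(FPKM + 1) in each library from the mean of the 6 libraries, for the 9 tested genes and as medians of long genes (at least 7000 bases of exon) and of the other tested genes. DICER1 (-0.71) and AGO2 (-0.62) are far below their means in NCc, where the median of the long genes is -0.09.

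The genes whose levels followed DICER1 most closely over the 6 libraries, among genes with a mean of at least 5 FPKM, were ENTPD4 (Pearson r = 0.994), ENTPD7 (r = 0.993) and YES1 (r = 0.993). For AGO2 they were ATP13A3 (r = 0.997), GSK3B (r = 0.997) and NAV1 (r = 0.995). These values are a description over 6 libraries, and NCc was the lowest library for each of these genes. ENTPD4 ranged from 12.5 to 18.3 FPKM and GSK3B from 9.22 to 13.5 FPKM. None of these genes passed the adjusted threshold between the groups.

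LIN28B (chromosome 6, plus strand, 104936616 to 105083332) was at the limit of detection in these cells. It had 0 reads in NCa, NCb, NCc and siPrp19a, 1 read in siPrp19b (0.0101 FPKM) and 3 reads in siPrp19c (0.0238 FPKM). A count of 0 allows a level of up to 3 reads, which was 0.0291 to 0.0339 FPKM in the NC libraries. Both groups were at or under this floor, so no fold change is given, and a difference was not detectable at this depth. Counting error is the only error that this floor covers. The overlapping antisense gene LIN28B-AS1 could add reads, because the strand setting of the counting was not given in the sources used here. The genes closest to LIN28B over the libraries were KLHL21, GPR137 and FLYWCH1 (r = 0.958 to 0.963), a likeness that rests on 4 reads in all. LIN28A, the paralogue of LIN28B, had 0 to 3 reads per library.

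The let-7 family, which LIN28B restrains, is shown by its mature sequences because they share the seed whose matches are counted here. All 9 mature let-7 and miR-98 5p sequences in the RefSeq table (GRCh38.p14) had the same seed, bases 2 to 8, here in capitals. Printed here are the 4 that lie within the host genes MIRLET7BHG, MIR100HG and HUWE1. The mature RNAs themselves were not measured.
let-7a-5p: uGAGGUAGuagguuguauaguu
let-7b-5p: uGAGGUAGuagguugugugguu
let-7f-5p: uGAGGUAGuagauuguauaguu
miR-98-5p: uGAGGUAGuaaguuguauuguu
LIN28B carried 5 matches to this seed, 1 in its coding sequence of 753 bases and 4 in its 3′ UTR of 4549 bases, all in exon 4 of 4. At least 2 matches in the 3′ UTR were found in 1.12% of the 19075 genes, whose 3′ UTRs averaged 1762 bases. The first match in the 3′ UTR and the one farthest from the stop codon are printed, with the match in capitals.
LIN28B 3′ UTR, chr6:105078827-105078833, plus strand: acccggttgcaaagtCTACCTCatg
LIN28B 3′ UTR, chr6:105082875-105082881, plus strand: aaatgatggtgttgaCTACCTCttg
Of the 11 let-7 hairpins with both arms in the table, 8 held the letters GGAG between the arms, the tetramer that LIN28 proteins recognise. The hairpins of MIRLET7A3 and MIRLET7B, which share the host MIRLET7BHG, did not hold it.

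The annotated genes that hold the let-7 hairpins were read by their FPKM over exons, which does not measure the unprocessed let-7 transcripts themselves. MIRLET7BHG, the host of let-7a-3 and let-7b on chromosome 22, had 1.32, 1.37 and 1.35 FPKM in NCa, NCb and NCc and 0.763, 1.12 and 1.11 in siPrp19a, siPrp19b and siPrp19c. The groups did not overlap, yet the log2 fold change of -0.24 ± 0.12 (SE) did not pass (adjusted p = 0.277), and the gene rests on 69 to 133 reads per library. MIR100HG, the host of let-7a-2, ranged from 1.85 to 2.17 FPKM in NC and from 1.56 to 1.93 in siPrp19 (adjusted p = 0.508). HUWE1, a ubiquitin ligase gene that hosts let-7f-2 and miR-98, ranged from 17.3 to 29.1 and from 24.3 to 32.1 FPKM (adjusted p = 0.669), with NCc the lowest library. WDR82, which overlaps let-7g, ranged from 20.8 to 22.9 and from 19.7 to 21.4 FPKM (adjusted p = 0.397), and SPACA6, which overlaps let-7e, from 1.95 to 2.65 and from 1.88 to 2.97 FPKM (adjusted p = 0.796). MIR99AHG and MIRLET7IHG, the hosts of let-7c and let-7i, stayed below 1 FPKM in every library. AL158152.2, an annotated transcript over the let-7a-1, let-7d and let-7f-1 cluster that was named after its values were seen, passed the threshold at 0.85 ± 0.16 (SE, adjusted p = 0.0227), but it rests on 1 to 8 reads per library, and its adjusted p was 0.201 in the 4 libraries. The 12 let-7 hairpin genes had at most 23 reads in any library, and 4 of them had 0 in all.

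Genes known as let-7 targets, 33 by a list, were tested where they were expressed. Of the 27 tested, 1 rose and 1 fell, or 7.41% called, a share near the 7.94% of all genes. Their median log2 fold change was -0.0081, and that of all tested genes was -0.02. MYC, a transcription factor that drives growth and also activates LIN28B, had 18.6, 18.6 and 20.0 FPKM in NCa, NCb and NCc and 13.6, 13.3 and 14.6 in siPrp19a, siPrp19b and siPrp19c. It fell by 0.44 on the log2 scale (adjusted p = 0.0141), with an adjusted p of 0.262 in the 4 libraries. HIC2, a transcriptional repressor, had 2.69, 2.56 and 2.67 FPKM in the NC libraries and 3.67, 4.77 and 4.56 in the siPrp19 libraries, and rose by 0.54 (adjusted p = 0.0210, 0.283 in the 4 libraries). AURKB, a mitotic kinase, had the other of the 2 lowest values, -0.34 (adjusted p = 0.0961), and ARID3B, a DNA-binding protein, the other of the 2 highest, 0.39 (adjusted p = 0.0662). HMGA2, a chromatin protein and a classical let-7 target, stood between 9.19 and 11.0 FPKM in all 6 libraries (adjusted p = 0.395). MYCN and TRIM71 were listed at 0 in every library. The 2 calls of this list were absent in the 4 libraries and as labelled. They were also absent when any 1 of NCa, NCb, siPrp19b and siPrp19c was left out, where 1.84% to 2.44% of all genes were called.

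A wider list of 46 genes of small RNA biology, partners of Drosha, Dicer and the Argonautes and proteins of microRNA decay and silencing, had 44 tested members. Of these 5 fell and 0 rose, or 11.4% called against 7.94% of all genes, and 11 had an unadjusted p under 0.05, or 25% against 23.6% of all genes. The median log2 fold change was -0.10, against -0.02 for all genes. KHSRP, an RNA-binding protein that promotes maturation of let-7 precursors, had 84.7, 87.1 and 83.0 FPKM in NCa, NCb and NCc and 59.8, 66.9 and 63.7 in siPrp19a, siPrp19b and siPrp19c (log2 fold change -0.42, adjusted p = 0.0204). TSN and TSNAX, the subunits of the nuclease C3PO that helps to activate the Argonaute complex, fell by 0.31 (adjusted p = 0.0261) and by 0.34 (adjusted p = 0.0276). NCBP2, a subunit of the nuclear cap-binding complex, fell by 0.40 (adjusted p = 0.0199), from 27.3 to 30.7 FPKM in NC to 20.9 to 21.7 in siPrp19. HSP90AA1, a chaperone that assists loading of Argonautes, fell by 0.42 (adjusted p = 0.0492), from 285 to 316 FPKM to 211 to 244. The genes with the largest rises were DCP1A, a decapping cofactor, at 0.24 (adjusted p = 0.212) and CNOT1, the scaffold of the CCR4-NOT deadenylase, at 0.28 (adjusted p = 0.405), and NCc was the lowest library for both. In the 4 libraries and as labelled 0 of the 44 were called. The 5 calls went to 0 when any 1 of NCa, NCb, siPrp19b and siPrp19c was left out, where 1.84% to 2.44% of all genes were called. They went to 2 with equal sums in each library (4.95% of all genes) and to 1 with quantile normalization (7.92% of all genes).

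**Figure D5:**
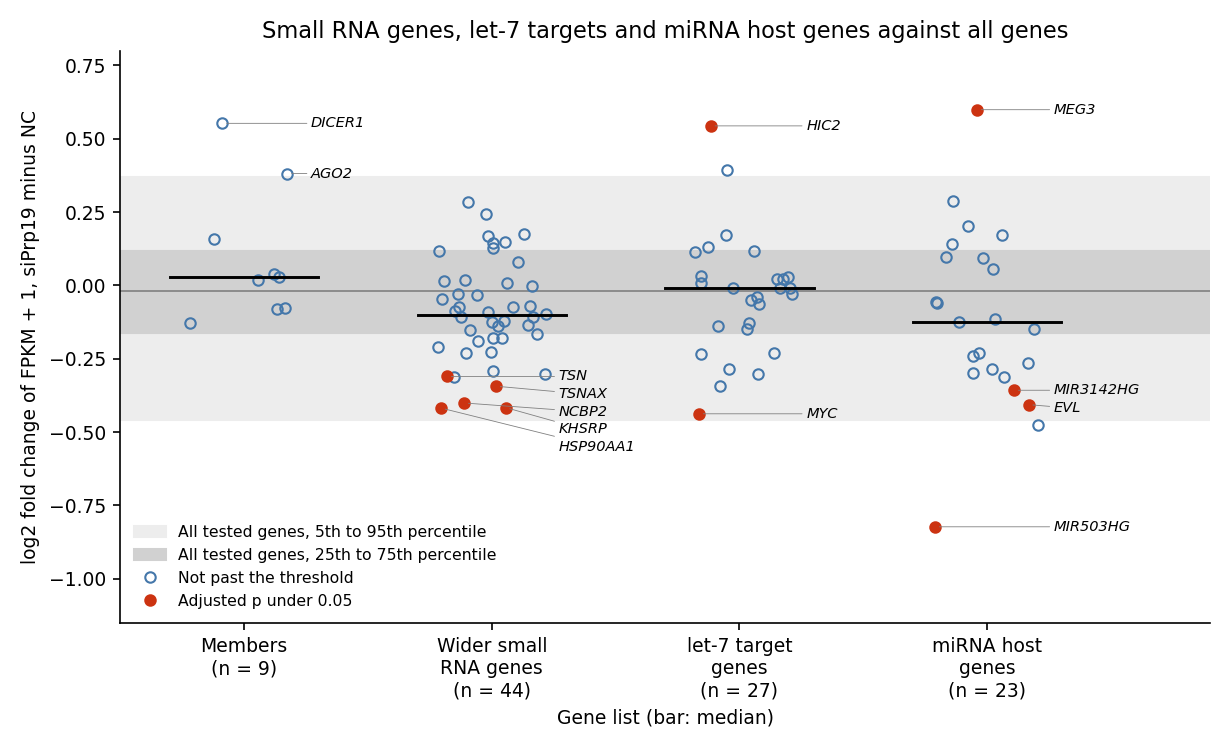
log2 fold change of FPKM + 1 (vertical axis, siPrp19 minus NC) of each tested gene of the set and of 3 lists, by column name, with the median of each as a bar and the spread of all 13718 tested genes as grey bands. Filled red points passed the adjusted threshold. DICER1 (0.55) and AGO2 (0.38) lie above the 95th percentile of all genes (0.37) without passing it.

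Of 34 host genes of microRNAs, 23 were tested, 1 rose and 3 fell, or 17.4% called against 7.94% of all genes, and the median log2 fold change was -0.12 against -0.02 for all genes. MEG3, a long noncoding RNA beside a large microRNA cluster, had 7.53, 7.49 and 6.22 FPKM in NCa, NCb and NCc and 10.9, 11.3 and 11.4 in siPrp19a, siPrp19b and siPrp19c, and rose by 0.60 (adjusted p = 0.0102). MIR503HG, a noncoding host of the miR-503 cluster, had 11.0, 9.62 and 10.3 FPKM in the NC libraries and 5.06, 6.54 and 4.71 in the siPrp19 libraries, and fell by 0.82 (adjusted p = 0.0102). EVL, an actin regulator that hosts miR-342, fell by 0.41 (adjusted p = 0.0185), and MIR3142HG, the host of miR-146a, fell by 0.36 (adjusted p = 0.0332). PANK3, the host of miR-103a-1, was at -0.48 (adjusted p = 0.0781) and COPZ1, the host of miR-148b, at 0.29 (adjusted p = 0.123). In the 4 libraries the lowest adjusted p among the 4 called hosts was 0.0819, for MIR503HG, and as labelled none of the 23 was called. Leaving out NCa, siPrp19b or siPrp19c left 1 call (4.35%), against 1.84% to 1.97% of all genes in those fits. Leaving out NCb left 2 (8.70%, against 2.44% of all genes), whereas leaving out NCc gave 7 (30.4%, against 9.87%).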

How the data were processed

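The authors deposited 1 table of FPKM values per library for 58735 Ensembl genes. The submitters' processing notes name HISAT2 2.0.5, featureCounts 1.5.0-p3 and the build hg38. The annotation release and strand setting are not given in the sources used here. All identifiers were found in GENCODE 29. Current symbols were matched to 58207 of them, and GENCODE names were kept for 528. FPKM times exon length was a whole multiple of 1 constant for 100% of values, within a tolerance of 0.01, which gave the reads behind each value. The authors' fold changes were not used.

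Genes with a mean of at least 1 FPKM were tested as log2(FPKM + 1), so fold changes of low genes are understated. The linear model was that of limma 3.58.1 (R 4.3.3), with its trend option and p-values adjusted by Benjamini-Hochberg across the tested genes (threshold 0.05). Single genes had two-sided exact permutation tests (Python 3.11.15, numpy 2.4.6, pandas 2.3.3, matplotlib 3.10.9). Each value column took the group of the sample described by that column name. Of the 6 columns, 4 stood in files of other samples and 2 of these in files of the opposite group. The fits were tested on simulated data.

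The named genes were all members, PRPF19, up to 6 called genes of each list with the 2 largest rises and falls, and the 3 genes most like LIN28B, AGO2 and DICER1. The members and lists were chosen with earlier results of these data known. Alternatives were the 4 libraries, grouping as labelled, the replicate block, a pseudocount of 0.1, no filter, quantile normalization, equal sums, no trend, voom on the reads and leaving out each library. Added after seeing the data were a length and GC correction (splines with 4 degrees of freedom), also with the block or the 4 libraries, and averaging of the close pairs.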

Additional observations from a re-analysis of the deposited data

How the results depend on the processing

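Of 645 alternative values, 447 were the same, meaning direction and side of the threshold for fold changes and within 1.5 times for counts. Of the rest, 118 kept only the direction, 14 newly passed, 53 counts moved by over 1.5 times and 13 reversed. The 9 tested members gave 0 calls except with length and GC correction, with or without the replicate block, which gave 1, DICER1. Of all genes, 10.0% were called in that fit with the block and 12.9% without it. The adjusted p of DICER1 ran from 0.0234 to 1 and that of AGO2 from 0.0620 to 1. The members with non-overlapping groups, 2 by column name, were 1 as labelled and 4 after length and GC correction, against 31.3%, 4.62% and 36.6% of all genes.

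The calls over all genes, 1089 of 13718 (7.94%), were 2 in the 4 libraries and 2 with close pairs averaged. As labelled they were 0 with or without the block (191 and 263 at an unadjusted p under 0.05 without and with it). They were 679 with equal sums (4.95%) and 512 of 34468 genes without a filter (1.49%). With length and GC correction they were 1771 (12.9%), and with that correction in the 4 libraries 3. Leaving out 1 library gave 253 to 1354 (1.84% to 9.87%). The wider small RNA genes called, 5 of 44 (11.4%), were 0 in the 4 libraries, as labelled, with close pairs averaged and with the correction in the 4 libraries. They were 3 of 45 without a filter (6.67%), 2 with equal sums (4.55%) and 1 with quantile normalization (2.27%, against 7.92% of all genes). Without 1 library they were 0 to 6, with 6 without NCc (13.6%, against 9.87%). The let-7 targets called, 2 of 27 (7.41%), were 0 in those same fits of 4 libraries, labels and close pairs. They were 6 with the correction (22.2%, against 12.9% of all genes) and 1 of 31 without a filter (3.23%). Without 1 library they were 0 to 4, with 4 without NCc (14.8%, against 9.87%). The host genes called, 4 of 23 (17.4%), were 0 in those same fits and 8 with the correction (34.8%, against 12.9% of all genes). Without 1 library they were 1 to 7, with 7 without NCc (30.4%, against 9.87%). The fits of 4 values have fewer samples, whereas the labelled fits used all 6 libraries. The cause of these changes in the counts was not tested.

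With each group centred on its mean, same-numbered libraries of the 2 groups correlated at 0.134, -0.0490 and 0.204. Differently numbered libraries correlated at -0.199 to 0.131. These values do not settle whether the numbers are pairs. The main fit had no block, and a fit with the block was an alternative. With the replicate block, 928 genes were called (6.76%), 2 of the wider list (4.55%), and DICER1 had an adjusted p of 0.0524. With the correction as well, 3 of the wider list were called (6.82%, against 10.0% of all genes).

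Reversals were seen in members near 0 on the log2 scale. DROSHA was 0.024 in the 4 libraries, 0.11 as labelled with or without the block, 0.015 with close pairs averaged and 0.030 with the correction in the 4 libraries. DGCR8 was 0.045 as labelled with or without the block, and AGO1 was -0.016 with the correction in the 4 libraries. Leaving out 1 library at a time, AGO1 ran from -0.051 (without NCc) to 0.065, with -0.015 without siPrp19b, AGO3 from -0.0047 (without NCc) to 0.062, XPO5 from -0.026 (without NCc) to 0.071, and TARBP2 from -0.16 to 0.063 (without siPrp19a).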
